A study of Rattus norvegicus with 6 samples.

Results

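The expression of 10 genes for the core proteins of chondroitin and heparan sulfate proteoglycans was compared between crushed and intact rat sciatic nerves. The genes were Vcan, Acan, Ncan, Cspg4, Dcn, Bgn, Lum, Sdc1, Sdc4 and Gpc1. They were taken by name from the 30957 genes of the deposited table, and each name matched 1 gene. The samples were 3 crushed sciatic nerves and 3 intact contralateral ones, all from Sprague-Dawley rats, which the methods describe as adult males with the nerve collected at 4 days postinjury (dpi). The labels give neither age nor time. According to the methods, the crushed sample was the proximal stump, and neither they nor the labels name a transgene or another treatment for these animals. The intact nerve came from operated animals, so it is not a nerve of a naive rat, and the labels do not say which nerves came from the same rat. Replicates are described as biological.

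A proteoglycan is a core protein that carries long sulfated sugar chains. In the nervous system, chondroitin sulfate chains are known to hold back growing axons, and heparan sulfate chains at the cell surface are known to bind growth factors, laminin and guidance molecules. In peripheral nerve, the lecticans and small leucine-rich proteoglycans lie in the matrix of the endoneurium and perineurium, whereas syndecans and glypicans sit on cell surfaces.

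The counts on genes summed to between 24844371 and 27139360 per nerve, and 12393 genes were tested. The labelled tissue was checked against markers of its cell types. Mbp, a main myelin gene, had at most 1 count in any nerve, Sox10, the transcription factor that defines the Schwann lineage, had at most 1, and the myelin gene Mag and the Schwann gene Cdh19 had 0 counts in all nerves. The fibroblast gene Dpt, the leukocyte gene Ptprc, the macrophage genes Adgre1 and Cd163, the endothelial gene Cldn5, the pericyte genes Rgs5 and Kcnj8, the T cell genes Cd3d and Cd3g and the muscle gene Ckm also had 0 counts in all nerves. The highest of the markers were the proliferation gene Top2a, with a mean of 162 FPKM (counts scaled to gene length and library size) over the 6 nerves, and Mki67, with 153. The most abundant marker of each other type had a mean of 10.4 FPKM for Pmp22 (myelin), 1.05 for Gfap (Schwann lineage), 7.67 for Pdgfra (fibroblast), 1.27 for Cd68 (macrophage), 0.107 for Vwf (endothelium) and 1.22 for Myh11 (smooth muscle). It had a mean of 0.0383 FPKM for Cd2 (T cell), 0.0305 for Acta1 (skeletal muscle) and 0.0254 for Plin1 (adipocyte). Defining markers of myelin, Schwann cells, leukocytes and vessels were thus absent or nearly so from libraries labelled as nerve, in both groups, and every value below is that of these libraries.

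The window upstream of the start site is shown for 2 members, Cspg4, the only member that passed the adjusted test, and Sdc4, the member with the highest level. The sequences are from RefSeq (GRCr8 assembly), cover the 250 bases before the start and are printed on the gene's strand. The Cspg4 window lies at chr8:66160692-66160941 on the plus strand, and the Sdc4 window at chr3:173592924-173593173 on the minus strand. Capitals mark matches, on either strand, to a κB-like pattern (GGG, any 5 bases, then CC), whose matches may overlap.

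Cspg4: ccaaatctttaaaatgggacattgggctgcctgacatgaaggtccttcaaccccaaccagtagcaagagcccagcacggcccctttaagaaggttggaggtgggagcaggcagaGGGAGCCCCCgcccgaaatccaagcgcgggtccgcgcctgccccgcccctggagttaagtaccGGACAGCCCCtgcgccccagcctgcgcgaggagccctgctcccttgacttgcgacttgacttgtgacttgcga

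Sdc4: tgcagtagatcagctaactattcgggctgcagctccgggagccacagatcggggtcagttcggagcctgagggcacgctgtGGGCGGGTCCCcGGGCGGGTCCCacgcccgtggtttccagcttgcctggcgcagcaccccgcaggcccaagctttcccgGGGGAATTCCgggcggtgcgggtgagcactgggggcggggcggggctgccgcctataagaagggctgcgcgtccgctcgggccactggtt

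The Cspg4 window held 2 matches and the Sdc4 window 5. Windows were found for 7 of the 10 members, Vcan with 2 windows, and 7 of the 8 windows held at least 1 match, against 42.3% of the 33469 rat windows of the same length. The windows of the members had between 52.8% and 73.6% G and C, against a median of 51.2%. The share with a match was not adjusted for this difference in base composition. The AP-1 pattern TGANTCA was in none of the 8 windows, against 6.34% of all windows. These are matches of letters, and binding was not measured. The absence of a match says only that these letters are not in the window.

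The levels of the 10 genes spanned several orders of magnitude. The syndecans Sdc4 and Sdc1, transmembrane carriers of heparan sulfate, were highest, with 130 ± 7.31 and 61.5 ± 3.97 FPKM (SD over all 6 nerves). Cspg4, the transmembrane proteoglycan NG2, followed with 19.99 ± 2.55 FPKM, then Bgn with 6.28 ± 0.321, Gpc1 with 0.956 ± 0.175 and Vcan with 0.178 ± 0.0331. From Sdc4 to Vcan, the lowest nerve of each gene lay above the highest nerve of the next, so that this order held in every nerve, whether crushed or intact. Acan had 0.0218 ± 0.00863 FPKM and Ncan 0.00461 ± 0.00715, and the ranges of these 2 genes overlapped. Dcn and Lum had no count in any nerve. Sdc4 and Sdc1 together made up between 84.7% and 88.6% of the summed FPKM of the 10 genes in each nerve, and that sum lay between 204 and 234 FPKM. Cell-surface core proteins thus made up most of the level of this group, and matrix core proteins were low or not detected.

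**Figure D1:**
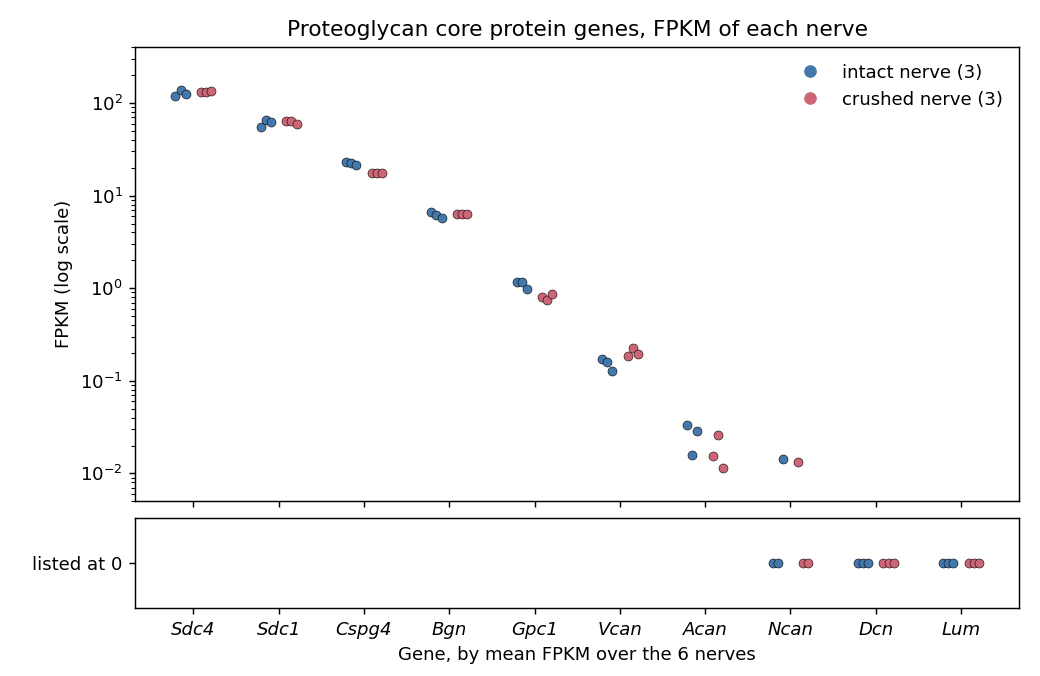
FPKM of each nerve on a log axis for the 10 core protein genes, ordered by mean level, with values of 0 in the lower strip. Blue points are the 3 intact nerves and red points the 3 crushed nerves. Sdc4 is highest at 130 FPKM and Dcn and Lum are listed at 0 in all 6 nerves.

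To ask whether the crush was accompanied by a change in these core proteins, counts were compared with edgeR's quasi-likelihood test over all genes. At the limits of the methods, a p under 0.001 (taken here as unadjusted) with a change of more than 1 on the log2 scale in either direction, none of the 6 members tested was called higher and none lower, while 0.218% of all genes tested were called higher and 0.0646% lower. At an adjusted p under 0.05 with no limit on the fold, 0 members were higher, against 1.47% of all genes, and 1 member was lower, against 1.65% of all genes. At an unadjusted p under 0.05, 2 of the 6 members passed, Cspg4 and Gpc1, against 16.2% of all genes tested. DESeq2 also called 0 members higher and 1 lower at an adjusted p under 0.05. The values of crushed nerves lay above those of all intact nerves in 1 member, Vcan, against 10.8% of genes tested. They lay below in 2 members, Cspg4 and Gpc1, against 12.2%. The median log2 fold change of the 6 members was 0.02, and that of all genes tested was -0.0017. The other 4 members, Acan, Ncan, Dcn and Lum, did not pass the filter on low counts.

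In what follows, counts are given for nerves 1, 2 and 3 of each group in that order. Cspg4 encodes NG2, a chondroitin sulfate proteoglycan that spans the membrane of pericytes, glial progenitors and other immature cells, and lies on chromosome 8 between 61532465 and 61567510 (coordinates of genes are those of the deposited table, for which the processing notes name the Rnor_6.0 build). It had 4756, 4798 and 4288 counts per intact nerve, against 3879, 3878 and 3555 per crushed nerve. In counts scaled to library size by TMM (normalized CPM), this was 188, 182 and 173 for intact, against 142, 143 and 142 for crushed nerves. All 3 crushed nerves lay below all 3 intact nerves, and the crushed nerves were closely alike. The mean was 181 ± 7.47 normalized CPM in intact and 142 ± 0.511 in crushed nerves (SD, n = 3 nerves each). Cspg4 fell in crushed nerves, with a log2 fold change of -0.35 (SE 0.0423, 95% interval -0.44 to -0.25, adjusted p = 0.00103 in edgeR, adjusted by Benjamini and Hochberg's method), a ratio of 0.786. The exact permutation test over the 6 nerves (two-sided) gave p = 0.1, the smallest that 3 nerves against 3 allow, and it gave the same p for Gpc1 and Vcan. In bulk tissue, fewer cells of a type and less RNA per cell cannot be told apart.

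Since NG2 is also used as a pericyte marker, the pericyte and smooth muscle list was read beside Cspg4. Its 5 genes summed to between 20.2 and 23.0 normalized CPM in intact and between 14.2 and 16.2 in crushed nerves, so the groups did not overlap. Of the list, 1 of 2 genes tested passed, Pdgfrb, a growth factor receptor of mural cells and fibroblasts, with a log2 fold change of -0.77 (edgeR adjusted p = 0.00106). The other, Myh11, showed a log2 fold change of -0.17 (edgeR adjusted p = 0.467), and its groups overlapped. The defining pericyte genes Rgs5 and Kcnj8 were at 0 in all 6 nerves, and Abcc9 had at most 1 count. The fibroblast list summed to between 66.0 and 72.8 normalized CPM in intact and between 63.8 and 70.4 in crushed nerves, which overlapped. Of its 4 genes tested, 2 were lower at an adjusted p under 0.05, Col1a1 and Col3a1, with log2 fold changes of -0.69 and -1.76 (edgeR adjusted p = 0.000662 and adjusted p = 0.0268). Pdgfra, the most abundant gene of that list, showed a log2 fold change of 0.19 (95% interval 0.05 to 0.34, edgeR adjusted p = 0.166) and did not pass. The myelinating Schwann list summed to between 59.9 and 64.7 normalized CPM in intact and between 59.3 and 59.5 in crushed nerves, and the endothelial list to between 1.17 and 1.86 and between 1.92 and 2.47, with no gene of either list past the test. The Schwann lineage list summed to between 9.85 and 10.9 in intact and between 7.07 and 8.14 in crushed nerves, with 1 of 3 genes tested lower, the neuregulin receptor Erbb3 (log2 fold change -0.59). As with the pericyte list, the groups did not overlap in the myelinating Schwann, endothelial and Schwann lineage sums. The part of these genes in the difference in Cspg4 was not tested.

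**Figure D2:**
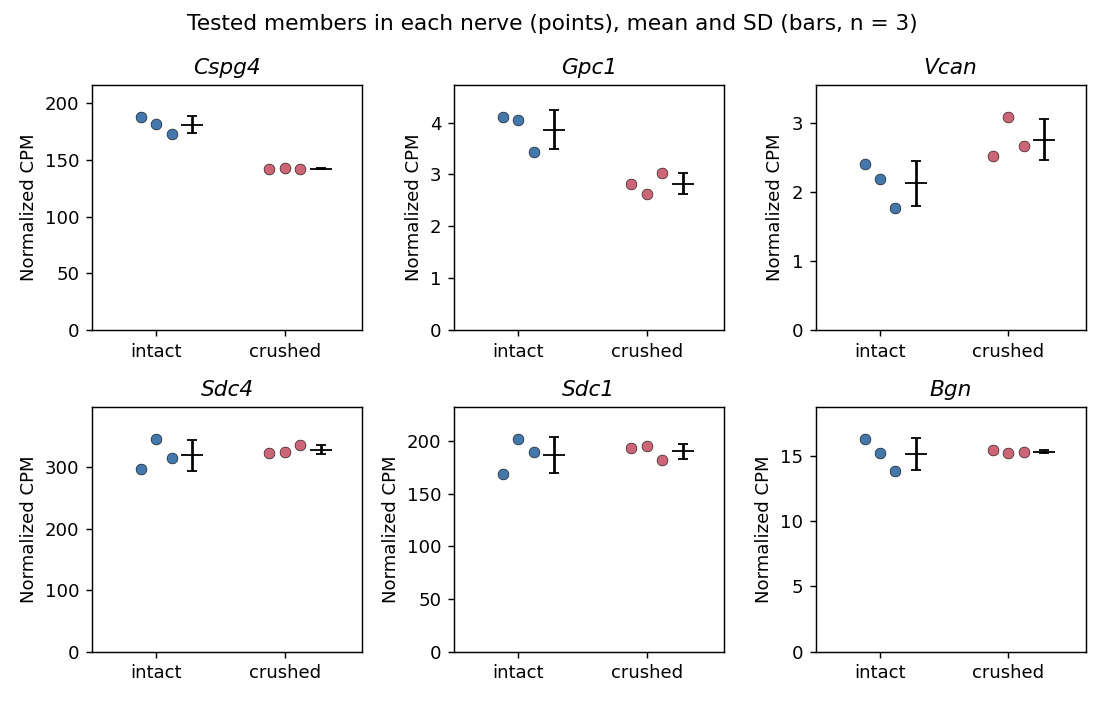
Normalized CPM of each nerve for the 6 members tested, with axes from 0. Points are nerves and bars the mean and SD of 3 nerves. Cspg4 was 181 in intact and 142 in crushed nerves, the groups of Cspg4, Gpc1 and Vcan do not overlap, and those of Sdc4, Sdc1 and Bgn do.

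Gpc1 encodes glypican 1, a heparan sulfate proteoglycan held on the membrane by a lipid anchor that binds growth factors and the guidance protein Slit, and lies on chromosome 9 between 99998275 and 100026818. It had 104, 107 and 85 counts per intact nerve, against 77, 71 and 76 per crushed nerve. The crushed nerves were all lower, with 2.82 ± 0.209 normalized CPM against 3.87 ± 0.377 in intact nerves (SD, n = 3 per group). The log2 fold change was -0.46 (SE 0.141, 95% interval -0.77 to -0.14, unadjusted p = 0.00829 and adjusted p = 0.129 in edgeR). The difference in Gpc1 thus did not pass after adjustment over all genes, at no more than 107 counts in any nerve.

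The syndecans are transmembrane core proteins that act with integrins and growth factor receptors, and Sdc4 is a component of focal adhesions. Sdc4, located on chromosome 3 between 160872503 and 160891190, had 7514, 9154 and 7818 counts per intact nerve, against 8819, 8849 and 8441 per crushed nerve. Its crushed nerves lay inside the range of the intact nerves, with 329 ± 7.35 against 320 ± 25.2 normalized CPM (SD, n = 3 per group). The log2 fold change of Sdc4 was 0.04 (SE 0.0542, edgeR adjusted p = 0.778), and the 95% interval of the change ran from -5.46% to 11.6%. Sdc1, located on chromosome 6 between 33885495 and 33908016, had 4272, 5341 and 4706 counts per intact nerve, against 5284, 5302 and 4568 per crushed nerve. Here too the groups overlapped, with 187 ± 17.0 normalized CPM in intact and 190 ± 7.03 in crushed nerves (SD, n = 3 per group). The log2 fold change of Sdc1 was 0.03 (SE 0.0619, edgeR adjusted p = 0.884), with a 95% interval of the change from -7.45% to 11.9%. Intact nerve 1 was the lowest for both syndecans, and without it the log2 fold changes were -0.0067 for Sdc4 and -0.04 for Sdc1.

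Among the small leucine-rich proteoglycans, which bind collagen fibrils and growth factors of the TGF-β family, Bgn (biglycan) was the only one read here with more than 1 count in a nerve. It lies on chromosome X between 157319046 and 157331204 and had 413, 402 and 343 counts per intact nerve, against 421, 414 and 384 per crushed nerve. The groups overlapped, with 15.1 ± 1.24 normalized CPM in intact and 15.3 ± 0.0838 in crushed nerves (SD, n = 3 per group). The log2 fold change of Bgn was 0.02 (SE 0.0830, edgeR adjusted p = 0.942), with a 95% interval of the change from -10.8% to 15.0%, and -0.04 without intact nerve 3. Dcn (decorin), located on chromosome 7 between 38742051 and 38782323, and Lum (lumican, a keratan sulfate proteoglycan), located on chromosome 7 between 38819771 and 38826862, had 0 counts in all 6 nerves. At this depth a count of 0 allows a level of up to 3 counts, between 0.110 and 0.121 normalized CPM per nerve, for counting error only. Both genes are typical of the fibroblasts of connective tissue. Other members of the family were likewise at 0, namely Fmod, Ogn, Aspn, Kera, Epyc and Omd, while Prelp had at most 1 count.

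The lecticans are large matrix proteoglycans that bind hyaluronan, and they are the chondroitin sulfate proteoglycans best known for holding back axons in the central nervous system. Vcan (versican), located on chromosome 2 between 18490102 and 18565842, had 61, 58 and 44 counts per intact nerve, against 69, 84 and 67 per crushed nerve. The crushed nerves were all higher, though by little at the edge, with 2.53 in the lowest crushed nerve against 2.41 normalized CPM in the highest intact nerve. The mean was 2.76 ± 0.294 in crushed and 2.13 ± 0.323 normalized CPM in intact nerves (SD, n = 3 per group). The log2 fold change of Vcan was 0.38 (SE 0.172, 95% interval -0.0051 to 0.757, unadjusted p = 0.0526 and adjusted p = 0.318 in edgeR), so the difference did not pass. Acan (aggrecan), located on chromosome 1 between 140762758 and 140824441, had 6, 3 and 5 counts per intact nerve, against 3, 5 and 2 per crushed nerve. Without the expression filter its log2 fold change was -0.53 with a 95% interval from -1.89 to 0.84 (edgeR adjusted p = 0.731), so that at this depth neither a rise nor a fall was detectable. Ncan (neurocan), located on chromosome 16 between 21050243 and 21076707, had 2 counts in intact nerve 3 and in crushed nerve 1 and 0 in the other nerves, at or under the floor of 3 counts throughout. Bcan (brevican), the remaining lectican, was at 0 in all nerves.

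**Figure D3:**
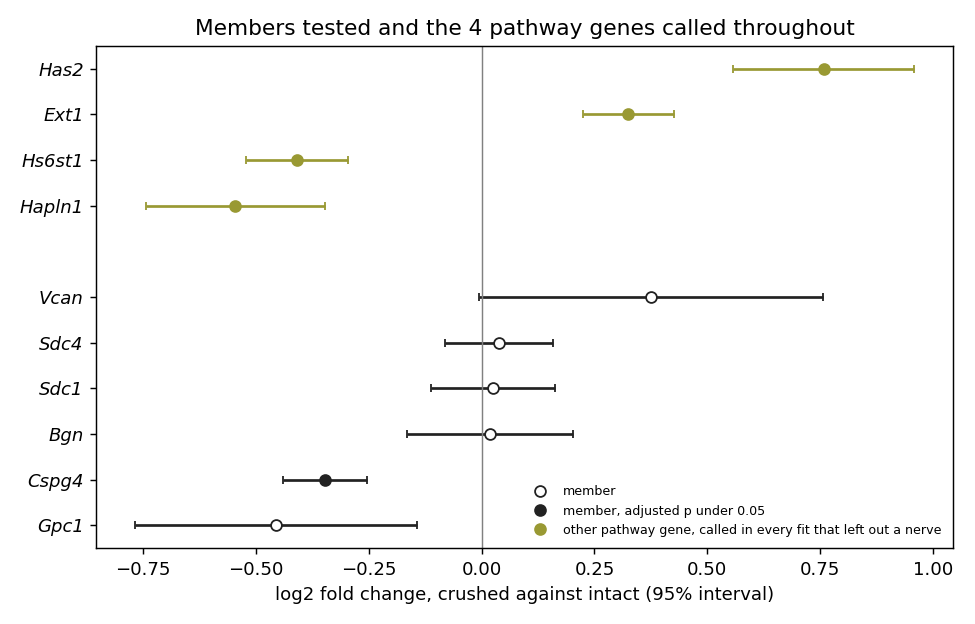
Log2 fold change of crushed against intact nerves with its 95% interval, for the 6 members tested (black, filled where the adjusted p was under 0.05) and the 4 other pathway genes called in every fit that left out a nerve (olive). Cspg4 at -0.35 is the only filled member, and Has2 at 0.76 is the highest of the pathway genes shown.

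The genes that build, modify, cut and bind the chains were read from 8 lists. Of 116 genes listed, 110 had a row in the table, 28 of those had no count in any nerve, and 67 were tested. At an adjusted p under 0.05, 7 were higher and 4 lower in crushed nerves and 56 did not pass, where 1.47% and 1.65% of all genes tested were higher and lower. None was called at the limits on fold and p. The number of genes higher changed with single nerves left out. It was 3 without intact nerve 2, 4 without intact nerve 3, 2 without crushed nerve 1, 3 without crushed nerve 2 and 2 without crushed nerve 3. The number lower was 2 without intact nerve 2, without crushed nerve 1 or without crushed nerve 2. Only 4 of the 11 genes, Ext1, Hs6st1, Has2 and Hapln1, were called in every fit that left out a nerve. The median log2 fold change of the 67 genes was 0.03, against -0.0017 for all genes tested.

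Heparan sulfate synthesis had 1 gene higher and 2 lower of 12 tested, with a median log2 fold change of 0.09. Ext1, a subunit of the polymerase that extends the chain, had 1769, 1801 and 1765 counts per intact nerve, against 2318, 2402 and 2230 per crushed nerve. It rose in crushed nerves by 0.33 on the log2 scale (SE 0.0453, edgeR adjusted p = 0.00248), with no overlap between groups. Ext2, its partner in the polymerase, showed a log2 fold change of 0.0040 (adjusted p = 0.979). Hs6st1, which adds sulfate at the O6 position of the chain, had 2024, 1908 and 1890 counts per intact nerve, against 1566, 1571 and 1426 per crushed nerve. It fell, with a log2 fold change of -0.41 (SE 0.0511, adjusted p = 0.00121). Hs3st1, which makes the rare sulfation that antithrombin binds, showed a log2 fold change of -0.23 (adjusted p = 0.0340), a call kept in 2 of the 6 fits that left out a nerve. Ext1 and these 2 sulfotransferases thus moved in opposite directions, while the other 9 genes tested did not pass. Extl3, which starts the chain, was the most abundant of the list at 73.2 FPKM, with a log2 fold change of 0.04 (adjusted p = 0.660). The genes of this list at 0 in all nerves were 6 in number, and 8 of its 20 genes with a row had at most 3 counts in any nerve.

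In the hyaluronan list, which covers the sugar chain that lecticans bind, 2 genes were higher and 1 lower of 9 tested, with a median log2 fold change of -0.0086. Has2, a hyaluronan synthase of the cell membrane, had 191, 178 and 189 counts per intact nerve, against 334, 339 and 309 per crushed nerve. It rose by 0.76 on the log2 scale (SE 0.0904, edgeR adjusted p = 0.000918), a ratio of 1.69, the highest log2 fold change of the 11 pathway genes that passed. Hapln1, the link protein that fixes lecticans to hyaluronan, had 343, 380 and 397 counts per intact nerve, against 274, 268 and 256 per crushed nerve. It fell, with a log2 fold change of -0.55 (SE 0.0898, adjusted p = 0.00762). Tnfaip6, an inflammation-induced protein that remodels hyaluronan, showed a log2 fold change of 0.50 with an adjusted p = 0.0494, close to the limit, and the call was kept in 1 of the 6 fits that left out a nerve. The most abundant gene of the list was Hmmr, a hyaluronan-binding protein that also acts on the mitotic spindle, with 108 FPKM and a log2 fold change of -0.05 (adjusted p = 0.523).

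**Figure D4:**
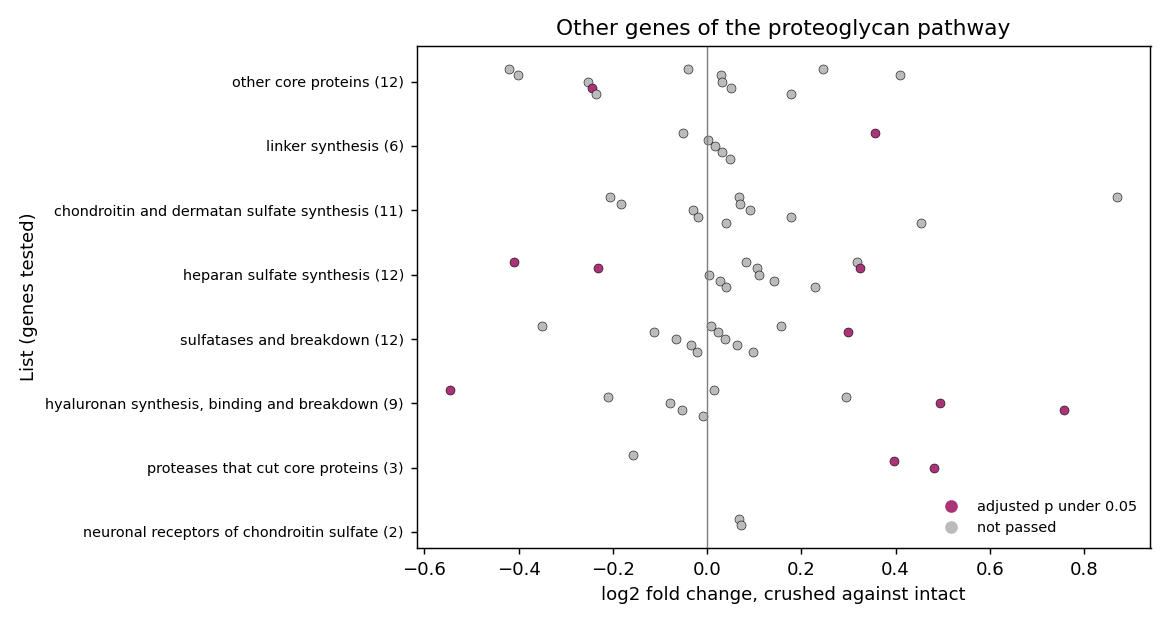
Log2 fold change of the 67 pathway genes tested, in 8 lists, with the number tested in brackets. Purple points passed an adjusted p under 0.05 (7 higher, 4 lower) and grey points did not.

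Of the proteases that cut lecticans, 2 of 3 tested were higher, Adamts1 and Adamts4, where 1.47% of all genes tested were higher. Their log2 fold changes were 0.40 and 0.48 (edgeR adjusted p = 0.0358 and adjusted p = 0.0448). Adamts1 was also the most abundant of the list at 4.29 FPKM. Both calls were kept in only 1 of the 6 fits that left out a nerve. The third, Adamts9, showed a log2 fold change of -0.16 (adjusted p = 0.523), and Adamts5 had at most 1 count. Of the 7 genes of this list, 4 had at most 3 counts in any nerve.

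Linker synthesis, the step common to chondroitin and heparan sulfate, had 1 gene higher of 6 tested. This was Pxylp1, a phosphatase that removes the phosphate from the xylose of the linker, with a log2 fold change of 0.36 (edgeR adjusted p = 0.0190, kept in 2 of the 6 fits that left out a nerve). Fam20b, the kinase that adds that phosphate and the most abundant of the list at 64.7 FPKM, showed a log2 fold change of 0.05 (adjusted p = 0.569). Xylt1 was at 0 in all nerves, while Xylt2, the other xylosyltransferase that starts every chain, had 10.5 FPKM. None of the 11 genes tested for chondroitin and dermatan sulfate synthesis passed, and their median log2 fold change was 0.07. At an unadjusted p under 0.05, 2 of them passed, Ust and Dse, against 16.2% of all genes tested. Chsy1, a chondroitin synthase and the most abundant of them at 28.6 FPKM, showed a log2 fold change of -0.03 (adjusted p = 0.803).

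Of the sulfatases and breakdown enzymes, 12 were tested. Ids, the iduronate sulfatase that was most abundant at 71.3 FPKM, showed a log2 fold change of 0.06 (adjusted p = 0.523). Sulf1, which removes sulfate from heparan sulfate outside the cell, showed a log2 fold change of 0.0080 (adjusted p = 0.952). Of the list of neuronal receptors of chondroitin sulfate, Ptprf and Ptprs were tested and did not pass. Their log2 fold changes were 0.07 each (edgeR adjusted p = 0.528 and adjusted p = 0.467). The word neuronal is part of the list's name, and the cells that these transcripts came from were not identified. Ptprf was the more abundant at 53.6 FPKM, and Rtn4r, Rtn4rl1 and Rtn4rl2 were at 0 in all nerves.

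Among the other core proteins, 1 of 12 tested was lower and none higher. Col18a1, a basement membrane collagen that carries heparan sulfate, showed a log2 fold change of -0.24 (edgeR adjusted p = 0.0276, kept in 2 of the 6 fits that left out a nerve). The most abundant was Cd44, a hyaluronan receptor that can carry both kinds of chain, with 310 FPKM, above every member, and a log2 fold change of 0.03 (adjusted p = 0.788). Of the 27 genes of this list with a row, 12 had no count in any nerve.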

How the data were processed

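RNA-seq of 3 crushed and 3 intact sciatic nerves was used, grouped by sample title. The authors deposited a table with the read count per Ensembl gene and nerve, not normalized, and FPKM values they computed per gene length and library size. The submitters' processing notes name HISAT2, StringTie 1.3.0 and the Rnor_6.0 build. The read counter, its use of strand and the annotation release are not given in the sources used here. The methods describe TRIzol, rRNA removal and RNase R (an exonuclease that digests linear RNA), but a column kit is named in the labels. Overlapping and antisense genes may share reads. Coordinates are those of the table. All 12 value columns were matched, and 0 other columns were present.

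Counts of all genes were fitted with edgeR 4.0.16 (quasi-likelihood test, TMM, expression filter, no replicate block; limma 3.58.1, R 4.3.3). The standard error was taken from the test statistic. Acan was read from the fit without the filter. FPKM was used to compare levels between genes and in 2 alternative fits. Where a symbol had several rows, the row with most counts was used. Named genes were the 10 members, up to 4 genes with the smallest p of each pathway list among those with an adjusted p under 0.05, the most abundant gene of each pathway and marker list and defining markers at 0. Others (Ext2, Xylt1, Xylt2, Sulf1, Ptprs, Adamts5, Adamts9, the genes at or near 0, the marker genes that passed, Ust and Dse) were chosen after their values were seen. Of 116 pathway genes, 6 symbols had no match and were not analysed here, nor were protein features. Results of some genes in the lists are not reported here. Members and lists were chosen with earlier results of these data known.

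Alternatives were the replicate block, DESeq2 1.42.0, no filter, limma on log2(FPKM + 0.1) and log2(FPKM + 1), library totals in place of TMM, and each nerve left out in turn. The calculation was tested on simulated data. Replicates of a group differed by more than sampling noise (chi-square divided by its degrees of freedom, 3.38 to 12.4), so each nerve counted as 1 sample.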

Additional observations from a re-analysis of the deposited data

How the results depend on the processing

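Cspg4 stayed lower with an adjusted p under 0.05 under all 12 alternatives, with adjusted p-values between 3.17e-08 and 0.0131, and no other member passed under any of them. The log2 fold changes of 3 members near 0 changed sign in fits that left out a nerve. They lay between -0.0067 and 0.104 for Sdc4, between -0.0382 and 0.0888 for Sdc1 and between -0.0391 and 0.0807 for Bgn, and the cause was not tested. The number of pathway genes higher, 7, was 4 with the replicate block, 3 with limma on log2(FPKM + 0.1), 3 with limma on log2(FPKM + 1), and between 2 and 5 in fits that left out a nerve. The number lower, 4, was 1 with limma on log2(FPKM + 0.1), 2 with limma on log2(FPKM + 1), and between 2 and 4 in fits that left out a nerve. Over all genes tested, 387 passed an adjusted p under 0.05, against 242 and 256 with limma on log2(FPKM + 0.1) and log2(FPKM + 1), 300 with the replicate block, 512 with DESeq2 and between 179 and 392 in fits that left out a nerve. Those fits have fewer nerves, and the cause of the other shifts was not tested. The genes Ext1, Hs6st1 and Has2 were called under every alternative. Same-numbered nerves did not deviate together (correlations between -0.0148 and 0.0756), so the replicate block is no evidence of pairing, and it changed no call among the members. Vcan, Acan, Ncan and Gpc1 had at most 107 counts per nerve, and the part of depth in their not passing was not tested.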

Other observations

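Dse, the epimerase that turns chondroitin into dermatan sulfate, was singled out after its values were seen. Its nerves 1, 2 and 3 of each group, in that order, had 984, 3684 and 1176 counts per intact nerve, against 3669, 3636 and 3655 per crushed nerve. Intact nerve 2 was thus at the level of the crushed nerves, and intact nerves 1 and 3 were far lower. The log2 fold change of Dse was 0.87 (SE 0.359, edgeR adjusted p = 0.264), within the spread between intact nerves.

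Sdc2, another syndecan gene, had a mean of 67.6 FPKM over the 6 nerves, between the means of Sdc4 and Sdc1. In crushed nerves 1 and 2, however, Sdc2 lay below Sdc1, with 60.6 and 60.2 against 63.5 and 63.9 FPKM. Sdc2 was lower in all 3 crushed nerves than in every intact nerve, as were 12.2% of genes tested. The gap was small, with 195 normalized CPM in the highest crushed nerve against 198 in the lowest intact nerve. It had 5687, 5922 and 4899 counts per intact nerve, against 4851, 4796 and 4891 per crushed nerve, a log2 fold change of -0.24 (edgeR adjusted p = 0.0630), which did not pass. Agrn, which encodes the heparan sulfate proteoglycan agrin of basement membranes and synapses, showed a log2 fold change of 0.25 (adjusted p = 0.200) and did not pass either. Both genes were chosen after their values were seen.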
